A study of Rattus norvegicus with 8 samples.

Results

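The mast cell genes described here are 8 genes, Cpa3, Mcpt1, Cma1, Tpsb2, Hdc, Kit, Ms4a2 and Fcer1a, followed in RNA sequencing of the rat thoracic aorta. They were taken by gene name from a table of 19238 genes, and each name matched 1 row. Whole aortic RNA came from 4 control Wistar rats and 4 Goto-Kakizaki (GK) rats, all 7 to 8 weeks old. The GK rat is a spontaneously diabetic strain bred from Wistar rats, and its samples carry the group label Diabetic Macroangiopathy. No treatment is given for either group, so the strain and the disease label are the same split and cannot be told apart. Libraries are numbered 7 to 10 in each group and are called control 7 or GK 7 below. No label ties a library to a named animal beyond this number, so p-values measure the spread between these libraries.

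Mast cells are tissue-resident immune cells that lie in the adventitia and around the small vessels of the arterial wall. They mature locally under stem cell factor, which binds the receptor tyrosine kinase Kit, and store proteases, histamine and proteoglycan in granules. Antigen that crosslinks IgE on the high-affinity receptor FcεRI releases the granules. Chymases, tryptases and carboxypeptidase A3 are the main granule proteases, and some chymases can convert angiotensin I to angiotensin II in the vessel wall.

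Of the 8 genes, 7 passed the filter on low counts and were tested, and Fcer1a did not pass. None of the 7 differed between GK and control aorta at a Benjamini-Hochberg adjusted p under 0.05 in edgeR's quasi-likelihood test, in which 7.28% of all 13673 tested genes did (3.31% lower and 3.96% higher in GK). DESeq2, which gave all 8 an adjusted p, also called 0, against 16.2% of its genes. At an unadjusted p under 0.05, edgeR passed 1 of the 7, Cpa3, against 27.6% of all tested genes, and DESeq2 passed 5 of 8, against 23.5%. The log2 fold change of GK over control was below 0 for 6 of the 7, with a median of -1.29. Over all tested genes the median was 0.00, and 50% were below 0. No member had groups that did not overlap in CPM, the read count scaled to the library total, a separation seen in 15.6% of tested genes.

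The low value of a single control library, control 8, lay behind much of the overlap. Control 8 was the lowest control for every member but Hdc, where it was the second lowest. The summed CPM of the 8 genes was 128 in control 7, 33.3 in control 8, 136 in control 9 and 140 in control 10. In GK libraries 7, 8, 9 and 10 the same sum was 61.6, 78.1, 37.6 and 20.8. Every GK library was thus below the other 3 controls, and GK 10 was below control 8 as well. In RNA of a whole vessel, fewer mast cells and less of these transcripts per cell cannot be told apart.

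**Figure D1:**
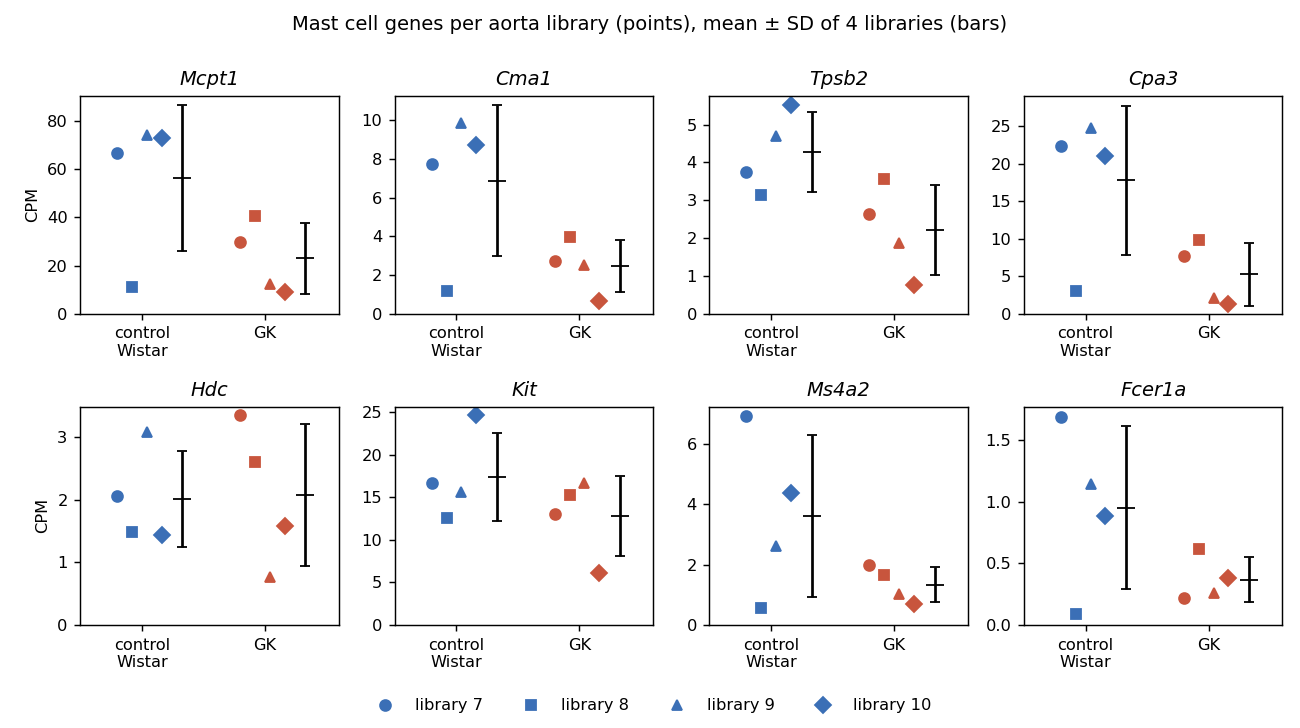
CPM of each mast cell gene (y axis, linear from 0) in the 4 control Wistar (blue) and 4 GK (red) libraries, with marker shapes for the library number and bars for mean ± SD. For Mcpt1, control 8 lies at 11.2 CPM, while the other controls lie between 66.9 and 74.3 CPM and the GK libraries between 9.21 and 40.6 CPM.

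The 250 bases before the annotated start are shown for the members that hold a GATA motif, since GATA factors are known regulators of mast cell genes. The sequences are from RefSeq (GRCr8) and run 5′ to 3′ on the gene's own strand. Capitals mark the motif, searched as AGATAA or TGATAA on both strands. The RefSeq gene Mcpt1l1 is included because it may be the copy behind the row named Mcpt1.
Cpa3, chr2:104673238-104673487 (- strand): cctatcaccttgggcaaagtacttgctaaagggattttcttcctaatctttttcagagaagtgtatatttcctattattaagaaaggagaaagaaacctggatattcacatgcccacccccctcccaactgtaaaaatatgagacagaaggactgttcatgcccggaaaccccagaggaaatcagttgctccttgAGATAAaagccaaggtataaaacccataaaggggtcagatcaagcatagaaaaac
Cma1, chr15:33390134-33390383 (- strand): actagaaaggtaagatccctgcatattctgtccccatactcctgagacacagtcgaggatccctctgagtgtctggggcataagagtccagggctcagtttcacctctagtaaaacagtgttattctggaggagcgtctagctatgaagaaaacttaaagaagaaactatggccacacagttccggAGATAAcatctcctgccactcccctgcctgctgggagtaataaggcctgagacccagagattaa
Fcer1a, chr13:88224680-88224929 (- strand): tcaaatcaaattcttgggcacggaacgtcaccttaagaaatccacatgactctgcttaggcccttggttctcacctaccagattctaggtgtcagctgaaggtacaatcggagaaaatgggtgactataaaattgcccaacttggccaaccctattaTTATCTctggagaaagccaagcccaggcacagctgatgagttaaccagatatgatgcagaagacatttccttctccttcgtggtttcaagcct
Mcpt1, chr15:33841356-33841605 (+ strand): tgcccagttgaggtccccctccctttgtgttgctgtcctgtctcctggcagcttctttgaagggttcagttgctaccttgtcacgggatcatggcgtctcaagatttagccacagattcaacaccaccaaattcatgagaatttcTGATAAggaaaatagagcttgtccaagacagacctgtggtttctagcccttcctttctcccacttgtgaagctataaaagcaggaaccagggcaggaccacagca
Mcpt1l1, chr15:33876896-33877145 (- strand): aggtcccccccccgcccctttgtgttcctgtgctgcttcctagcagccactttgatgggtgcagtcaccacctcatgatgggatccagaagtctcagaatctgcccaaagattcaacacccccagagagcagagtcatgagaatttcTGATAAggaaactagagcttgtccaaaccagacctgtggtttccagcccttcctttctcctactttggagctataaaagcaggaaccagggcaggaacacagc
The motif began 55 bases before the start in Cpa3, 64 in Cma1 and 93 in Fcer1a, where it is on the reverse strand. It lay 105 bases before the start in Mcpt1 and 103 in Mcpt1l1. The same window of Kit, Hdc and Tpsb2 did not hold these letters, and Ms4a2 had no entry among the promoters used. Thus 4 of the 7 members with a sequence held the motif, and 16.87% of all 33469 RefSeq promoters of this length did. The E-box CATGTG, the letters to which Mitf and related factors can bind, was in the windows of Cpa3, Fcer1a and Tpsb2, and in 12.09% of all promoters on either strand. A match of letters is a description and does not show that a factor binds there. With group means taken off, Gata2 had r = 0.00 with the mean of the tested members (rank 6051 of 12482 genes). This r includes GK 9, where Gata2, a gene of endothelium too, was at 38.5 CPM against 15.2 to 18.5 CPM in the other GK libraries. Gata1 was not found. A part of GATA factors in the member levels was not tested.

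Among the granule proteases, Mcpt1, the rat mast cell protease 1 and a chymase of connective tissue mast cells, had the highest level. Its CPM was 66.9, 11.2, 74.3 and 73.0 in controls 7, 8, 9 and 10, and 30.0, 40.6, 12.3 and 9.21 in GK libraries 7, 8, 9 and 10. Only control 8 among the controls reached down into the GK range, and GK 10 was below it. The means were 56.4 ± 30.3 CPM in controls and 23.0 ± 14.9 CPM in GK aorta (SD, n = 4 each). The log2 fold change was -1.29 ± 0.64 (SE), with an edgeR adjusted p of 0.226. With 1 library left out, the log2 fold change ran from -1.71 without GK 8 to -1.03 without GK 10, and the edgeR adjusted p from 0.0903 without control 8 to 0.402 without control 10. Without both libraries numbered 9 it was -0.93. The row named Mcpt1 is on chromosome 15 from 34609776 to 34612432 in the coordinates of the files, for which the sources used here name no rat build. It spans 2657 bases, the span of Mcpt1l1 in RefSeq, whereas RefSeq's Mcpt1 spans 2569. The 2 genes have similar sequences, so which of them gave these reads is uncertain.

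Cma1, mast cell chymase 1, lies on the same chromosome from 34601037 to 34603819. In the coordinates of the files it ends 5957 bases before the row named Mcpt1 begins, whereas in GRCr8 the promoters shown for Cma1, Mcpt1 and Mcpt1l1 lie farther apart, a difference that was not resolved here. Its CPM in controls 7 to 10 was 7.71, 1.20, 9.85 and 8.73. The GK libraries, in the same order, had 2.70, 3.98, 2.52 and 0.680 CPM. The order of libraries resembled that of Mcpt1, with control 8 among the GK values and GK 10 lowest of all. The group means were 6.87 ± 3.88 and 2.47 ± 1.36 CPM (SD, n = 4 each), a log2 fold change of -1.48 ± 0.66 (SE) with an edgeR adjusted p of 0.186. With 1 library left out it ran from -1.82 without control 8, where the edgeR adjusted p was 0.0735, to -1.17 without GK 10, where it was 0.308.

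Tpsb2 encodes a beta tryptase, the granule protease that forms heparin-stabilised tetramers. It lies on chromosome 10 from 14722756 to 14724600. Controls 7 to 10 had 3.74, 3.14, 4.69 and 5.53 CPM, and GK 7 to 10 had 2.63, 3.57, 1.87 and 0.755 CPM. In this gene control 8 was close to control 7, and 3 of the 4 GK libraries were below every control. The means were 4.28 ± 1.05 CPM in controls and 2.21 ± 1.19 CPM in GK (SD, n = 4 each). The log2 fold change was -0.95 ± 0.43 (SE), with an edgeR adjusted p of 0.193. Its neighbour in sequence, the tryptase gene Tpsab1, was at 1.11 ± 0.666 CPM in controls and 0.699 ± 0.547 CPM in GK (SD, n = 4 each), with an edgeR adjusted p of 0.574. Tryptase and chymase genes are families of similar sequence, and reads may have been split between copies.

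Cpa3, carboxypeptidase A3, a metalloprotease stored with chymase and heparin, is on chromosome 2 from 105016626 to 105047984. Its CPM was 22.3, 3.05, 24.8 and 20.9 in controls 7 to 10. For GK 7 to 10 it was 7.74, 9.88, 2.13 and 1.36. GK 9 and GK 10 were below all controls, while GK 7 and GK 8 were between control 8 and the other 3. Group means were 17.8 ± 9.95 and 5.28 ± 4.18 CPM (SD, n = 4 each). With a log2 fold change of -1.75 ± 0.75 (SE), Cpa3 had the largest difference and the lowest p of the 7 tested members, 0.0457 before and 0.172 after edgeR's adjustment. Without control 8 the fold change was -2.10 and the edgeR adjusted p 0.0909, and without both libraries numbered 9 it was -1.29 and 0.286.

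Hdc, histidine decarboxylase, makes histamine and is also used by basophils and other cells. The gene is on chromosome 3 from 119057517 to 119075619. Controls 7 to 10 had 2.06, 1.48, 3.08 and 1.43 CPM, and GK 7 to 10 had 3.36, 2.61, 0.774 and 1.59 CPM. The highest and the lowest of the 8 values were both GK libraries. The means were 2.01 ± 0.768 and 2.08 ± 1.13 CPM (SD, n = 4 each). The log2 fold change was 0.04 ± 0.47 (SE), with an edgeR adjusted p of 0.964, and its sign changed with the libraries included.

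Of the receptors, Kit binds stem cell factor and is also carried by melanocytes, interstitial cells of Cajal and blood progenitors. It lies on chromosome 14 from 35072108 to 35149610. Kit was at 16.7, 12.6, 15.6 and 24.7 CPM in controls 7 to 10 and at 13.0, 15.2, 16.7 and 6.12 CPM in GK 7 to 10. Only GK 10 was below the lowest control, and GK 9 was level with control 7. Mean levels were 17.4 ± 5.17 and 12.8 ± 4.69 CPM (SD, n = 4 each), a log2 fold change of -0.45 ± 0.32 (SE) with an edgeR adjusted p of 0.397.

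Ms4a2, the beta chain of FcεRI that amplifies its signal, is on chromosome 1 from 227957302 to 227965386. Controls 7 to 10 had 6.90, 0.555, 2.61 and 4.37 CPM, and GK 7 to 10 had 1.97, 1.65, 1.03 and 0.680 CPM. Control 8, with 6 reads, was the lowest of the 8 libraries, and the other 3 controls were above every GK library. Means were 3.61 ± 2.69 and 1.33 ± 0.584 CPM (SD, n = 4 each). The log2 fold change was -1.44 ± 0.66 (SE), with an edgeR adjusted p of 0.197. It was -1.79 without control 8, with an edgeR adjusted p of 0.0701, and -0.90 without control 7, the highest library, with 0.413.

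Fcer1a, the alpha chain that holds the IgE, lies on chromosome 13 from 91730925 to 91737053 and had the fewest reads. Controls 7 to 10 held 23, 1, 17 and 13 reads and GK 7 to 10 held 3, 9, 4 and 5. Apart from control 8 with its single read, every control was above every GK library. At this depth the CPM was 0.952 ± 0.663 in controls and 0.368 ± 0.180 in GK (SD, n = 4 each). Fitted without the low count filter, Fcer1a had a log2 fold change of -1.35 and an edgeR adjusted p of 0.304. The gamma chain gene Fcer1g, shared with other Fc receptors and with many myeloid cells, was at 11.7 ± 2.83 and 8.38 ± 0.929 CPM (SD, n = 4 each), with a log2 fold change of -0.49 ± 0.20 (SE) and an edgeR adjusted p of 0.164.

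**Figure D2:**
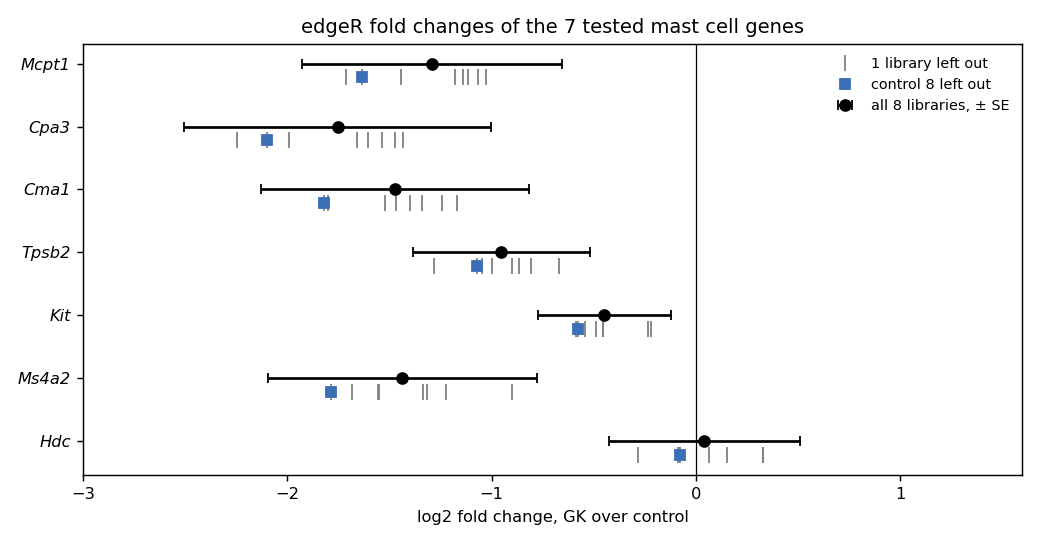
Log2 fold change of GK over control from edgeR for the 7 tested mast cell genes (black points, bars ± SE), with the values when each library in turn is left out (grey ticks) and when control 8 is left out (blue squares). Cpa3 moves from -1.75 to -2.10 without control 8, and Hdc from 0.04 to -0.08.

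Apart from control 8, all 4 GK libraries were below the lowest control for 6 of the 8 genes, Cpa3, Mcpt1, Cma1, Tpsb2, Ms4a2 and Fcer1a. Control 8 was singled out after these values were seen, as the control within the GK range, so this count is a description. Without control 8 the groups did not overlap, with GK lower, in 11.7% of all tested genes and, in either direction, in 22.9%, and nothing is read from these shares. Each library was left out in turn. At an unadjusted p under 0.05, edgeR then passed 5 of 8 members without control 8, where 27.6% of all genes passed, and 4 of 8 without GK 8, where 19.6% did. Without control 7, 9 or 10, or without GK 7, 9 or 10, it passed 0 members, where 19.9% to 38.9% of all genes passed. Without both libraries numbered 9 it passed 0 of 7 members and 36.0% of all genes. In none of these fits was a member past the adjusted threshold, which 4.24% of all genes passed without control 8. Control 8 had 11760397 gene counts, the fewest of the 8 libraries, whose totals reached 16266151. It was also the lowest control in the summed CPM of 15 macrophage genes, at 508.8 against 913 to 1325 in the other 3. The same held for the general leukocyte gene Ptprc, at 35.8 against 59.6 to 80.5, and for the T cell sum, at 38.2. Other immune lists went differently. Control 8 was the highest control for B and plasma cell genes, at a summed 20.2 CPM. It lay between other controls for neutrophil genes, at 86.5, and for basophil and eosinophil genes, at 97.6. The part of library composition in the mast cell values was not tested.

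Per length, as the FPKM (read level scaled by gene length and library total) that the authors deposited, the mean levels in controls ran from Mcpt1 at 60.5 through Cpa3 at 12.3, Cma1 at 7.81, Tpsb2 at 3.40, Kit at 2.35, Ms4a2 at 1.45 and Fcer1a at 0.752 to Hdc at 0.630. Mcpt1 was above Cpa3 in 4 of 4 controls, Cpa3 above Cma1 in 4 and Tpsb2 above Kit in 4, yet the ranges of all neighbours in this order overlapped between libraries. Fcer1a and Hdc had no stable order, with Fcer1a higher in 2 of 4 controls. In GK aorta Mcpt1 was at 21.0 FPKM, Cpa3 at 3.08, Cma1 at 2.46, Kit at 1.59, Tpsb2 at 1.56, Hdc at 0.542, Ms4a2 at 0.470 and Fcer1a at 0.252. Mcpt1 and Cpa3 were the single pair of neighbours in GK whose ranges did not overlap. Kit and Tpsb2 were not ordered there, at 2 of 4 libraries each way.

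**Figure D3:**
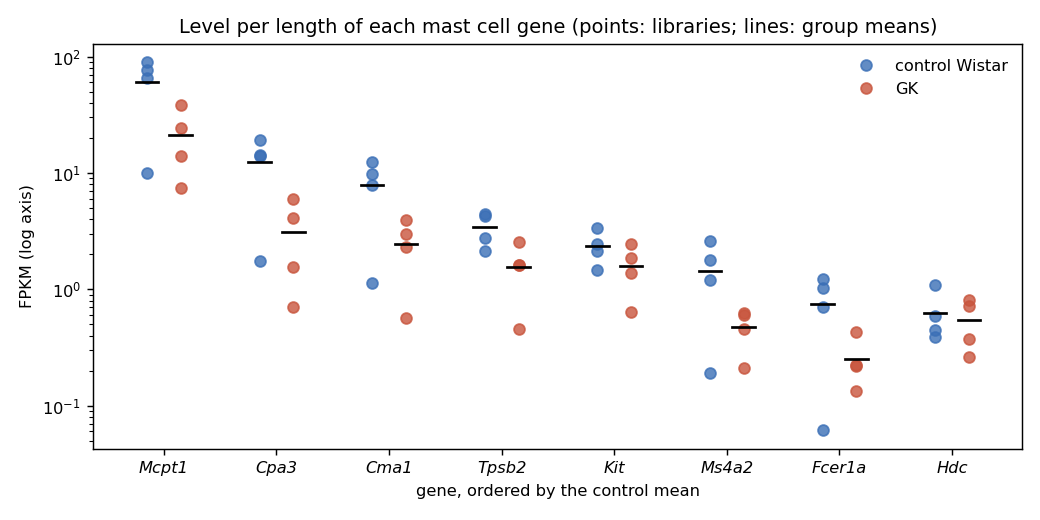
Deposited FPKM (log axis) of each mast cell gene in the 8 libraries, as points for control Wistar (blue) and GK (red) with lines for group means, ordered by the control mean. Mcpt1 is highest in both groups, at means of 60.5 and 21.0 FPKM, and Hdc lies close together in both, at 0.630 and 0.542 FPKM.

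The ratio of Mcpt1 to Cpa3 in FPKM was 4.66, 5.69, 4.65 and 5.41 in controls 7 to 10. In GK 7 to 10 it was 6.02, 6.37, 8.98 and 10.5, above every control. This ratio was singled out after its values were seen and is given without a test. Against Kit, Ms4a2, Fcer1a, Hdc, Cma1 and Tpsb2, the ratio of Mcpt1 overlapped between the groups.

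The members also varied together among libraries of the same group. With the group mean taken off the log2 CPM, the Pearson r over 8 libraries had a median of 0.734 across the 28 pairs of members and ran from -0.10 to 0.992. The 10 pairs among Cpa3, Mcpt1, Cma1, Ms4a2 and Fcer1a had a median of 0.854 and a lowest value of 0.726. This set was chosen with earlier results of these data known, so its values are no test. Tpsb2, left out of it, had r of 0.786, 0.747 and 0.776 with Cpa3, Mcpt1 and Cma1. With Ms4a2 and Fcer1a the r of Tpsb2 was 0.523 and 0.260. Pairs with Hdc had a median of 0.352. These values are a description, since the points share the libraries and their composition, and the median of the 28 pairs was 0.530 when control 8 was left out, a choice made after the data were seen. In the mean of the tested members, control 8 deviated by -1.33 and GK 10 by -1.01 from their group on the log2 scale, while the other 3 controls were 0.43 to 0.46 above it.

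**Figure D4:**
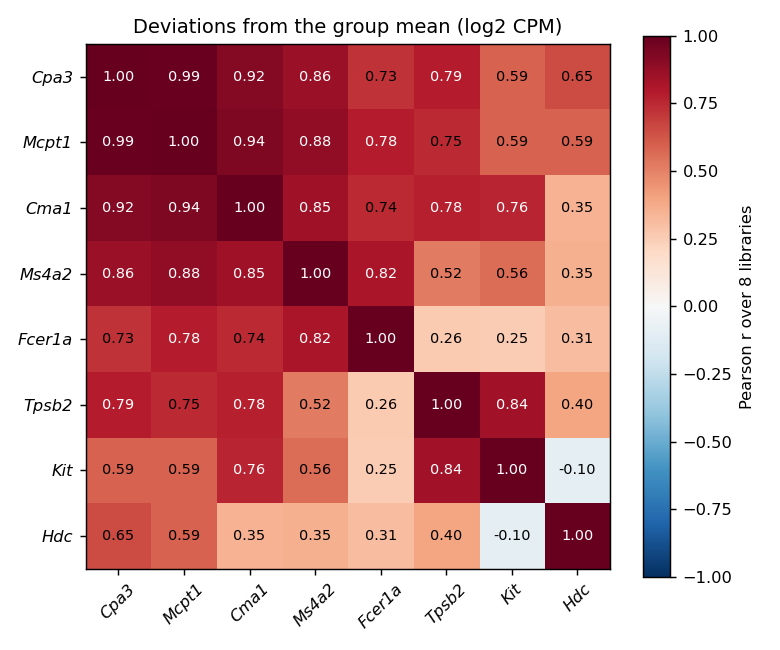
Pearson r between the mast cell genes over 8 libraries, computed on log2 CPM less the group mean (colour scale from -1 to 1). Cpa3 and Mcpt1 have the highest value, 0.99, and Kit with Hdc the lowest, -0.10.

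Outside the members, the 8 genes most like their mean profile, among 12482 compared over 8 libraries, were Afap1l1 (r = 0.964), Ankrd28 (0.964), Ccdc66 (0.963), Itgam (0.956), Lrrc48 (0.952), Gba2 (0.948), Stk38 (0.947) and Card6 (0.945). None of the 8 was called between GK and control, and their edgeR adjusted p ran from 0.0738 for Ankrd28 to 0.958 for Ccdc66. Itgam, the integrin alpha M chain of myeloid cells, was at 23.3, 8.60, 21.7 and 24.2 CPM in controls 7 to 10 and at 11.3, 9.95, 8.77 and 5.21 CPM in GK 7 to 10. Like Mcpt1, Cma1 and Cpa3, it was low in control 8 and lowest in GK 10, a pattern for which the choice by likeness to the members selects.

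A further 30 genes known from mast cells were listed, of which 18 were found and 12 tested. Of these 1 fell and 0 rose, against 7.28% of all tested genes called. Their median log2 fold change was -0.61. The one that fell was Srgn, serglycin, the core protein of granule proteoglycan, which is also made by other leukocytes and endothelium. Srgn was at 34.6, 61.8, 64.9 and 51.9 CPM in controls 7 to 10 and 26.7, 23.8, 30.3 and 33.8 CPM in GK 7 to 10, without overlap. Its log2 fold change was -0.89 ± 0.21 (SE), with an edgeR adjusted p of 0.0415. The call was lost without the low count filter, at 0.0557, without both libraries numbered 9, at 0.0519, and without control 8, control 9, control 10, GK 7, GK 8 or GK 10, at 0.0730 to 0.131 (edgeR adjusted p). Across libraries Srgn did not follow the members (r = -0.57).

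Il1rl1, the ST2 receptor for interleukin-33, did follow them, with r = 0.936 and rank 11 of 12482. Il1rl1 was at 15.8, 4.16, 17.2 and 11.5 CPM in controls 7 to 10 and 5.55, 6.31, 4.97 and 1.96 CPM in GK 7 to 10, again with control 8 inside the GK range. Its log2 fold change was -1.37 ± 0.48 (SE), with an edgeR adjusted p of 0.111, and DESeq2 gave 0.0444. Mitf, a transcription factor that mast cells and melanocytes need, was at 26.0 ± 6.23 CPM in controls and 15.4 ± 2.74 CPM in GK (SD, n = 4 each), without overlap. The edgeR adjusted p of Mitf was 0.0617, or 0.0370 without GK 9, and the DESeq2 one was 0.0160. Without any other single library the edgeR adjusted p of Mitf was 0.0581 to 0.162, and without both libraries numbered 9 it was 0.0542. Mrgprx2, a receptor for basic secretagogues on connective tissue mast cells, had 91 reads in controls and 32 in GK, and control 8 held 0 of them.

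Markers of mucosal mast cells were near the floor of detection. Mcpt2, the chymase of that subtype in the rat, had 7 reads over the 4 controls and 4 over the 4 GK libraries, and the related Mcpt1l3 had 5 and 4. Slc18a2, the vesicular transporter that loads histamine and other amines, stood out in 1 library. It was at 45.9 CPM in GK 9 and at 0.529 to 1.10 CPM in the other GK libraries, against 0.661 to 2.48 CPM in controls. GK 9 was also the library with skeletal muscle genes, at a summed 16000 CPM for the 6 found, while no other library passed 47.6 CPM, and 0 of the 4 tested were called. Gata2, a transcription factor of mast cells and endothelium, was likewise highest in GK 9, at 38.5 CPM against 15.2 to 18.5 CPM in the other GK libraries. The part of the skeletal muscle RNA in these values was not tested.

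The ligand of Kit differed from most members in its direction between the groups. Among libraries of the same group Kitlg varied with the members (r = 0.817, rank 201 of 12482). Kitlg, stem cell factor, was at 101, 54.1, 90.0 and 86.3 CPM in controls 7 to 10 and 178, 136, 112 and 125 CPM in GK 7 to 10, so that every GK library was above every control. Its log2 fold change of 0.74 ± 0.22 (SE) missed the threshold with an edgeR adjusted p of 0.0776, passed it in DESeq2 at 0.0170, and passed it in edgeR without GK 9, at an adjusted p of 0.0328, and without both libraries numbered 9, at 0.0480. Without any other single library its edgeR adjusted p was above 0.05. Among the 13 tested of 14 genes listed under stem cell factor signalling, 1 fell and 0 rose, against 7.28% of all tested genes called. Their median was -0.21. The gene that fell was Csf2rb, the common beta chain of the receptors for interleukin-3, interleukin-5 and granulocyte-macrophage colony-stimulating factor, at 41.8 ± 7.71 CPM in controls and 15.3 ± 1.05 CPM in GK (SD, n = 4 each). Its log2 fold change was -1.44 ± 0.15 (SE), with an edgeR adjusted p of 0.00414, and other myeloid cells use this chain too. The call held in all 8 fits with 1 library left out, at an edgeR adjusted p of up to 0.0278. Csf2rb serves receptors of other cytokines and is not the receptor of stem cell factor, so its fall is not read as a change in that signalling.

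Downstream of the IgE receptor, 32 listed signalling and secretion genes were tested, of which 1 rose and 2 fell, against 7.28% of all tested genes called. Their median was -0.25. Sos1, an exchange factor that activates Ras, rose from 74.6 ± 9.65 to 114 ± 17.8 CPM (SD, n = 4 each; log2 fold change 0.62, edgeR adjusted p 0.0486). Prkcd, protein kinase C delta, fell by 1.11 on the log2 scale, with an edgeR adjusted p of 0.0458. Pla2g4a, the phospholipase that frees arachidonate, fell by 1.19, with an edgeR adjusted p of 0.0431. None of the 3 was called without the low count filter, nor without control 8, control 9, control 10, GK 7, GK 8 or GK 10, where their edgeR adjusted p reached 0.140, and Sos1 was also lost without control 7. All these genes work in many cell types, and the list also held Ms4a1, a B cell gene, and Pdk1, a mitochondrial kinase, neither of which belongs to the pathway. In the authors' deposited table, the Fc epsilon RI pathway had 3 called genes of 65, 1 up and 2 down, with an enrichment p of 1. In the gene results that the authors deposited, no member carries a call, and the lowest q-value among the members is the 0.0810 of Cpa3.

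For mediators and their receptors, 17 of 25 listed genes were tested, of which 1 fell and 0 rose, against 7.28% of all tested genes called. Their median was -0.51. The one that fell was Ace, angiotensin-converting enzyme, which like some chymases makes angiotensin II and in arteries is a gene of endothelium. Ace was at 56.2 ± 6.24 CPM in controls and 34.3 ± 4.33 CPM in GK (SD, n = 4 each), a log2 fold change of -0.71 with an edgeR adjusted p of 0.0233. The call was lost without control 10, GK 7, GK 8 or GK 10, at an edgeR adjusted p of up to 0.0810. DESeq2 called 6 of the 22 genes found from this list lower, against 16.2% of all its genes called in either direction.

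Genes of cells that share markers with mast cells were also counted, beside the 7.28% of all tested genes that edgeR called. Of the basophil and eosinophil list 2 of 13 genes were tested, with a median of -3.08. The 2 were lower at an unadjusted p under 0.05 in edgeR, against 27.6% of all tested genes in either direction. DESeq2 called 3 of the 7 genes found lower, against 16.2% of all its genes. The summed CPM of the 7 was 33.3 to 194 in controls and 8.37 to 20.3 in GK. Siglec5, a lectin of myeloid cells, fell from 17.7 ± 9.94 to 1.62 ± 0.410 CPM (SD, n = 4 each; edgeR adjusted p 0.0163), a call lost without control 10, GK 7, GK 8 or GK 10 at up to 0.0641. Of the 9 genes of melanocytes and interstitial cells of Cajal 4 were tested, with a median of 0.92, and Ednrb, the endothelin B receptor, which endothelium also carries, rose by a log2 fold change of 2.35 with an edgeR adjusted p of 0.0163, a call lost without control 10 or GK 8 at up to 0.0606. Macrophage genes had 2 that fell of 14 tested, with a median of -0.90, and their summed CPM was 508.8 to 1325 in controls and 352 to 586 in GK. These were Lyz2, a lysozyme (edgeR adjusted p 0.0170), and Msr1, a scavenger receptor (0.0486). Without control 10, GK 7, GK 8 or GK 10 neither was called in edgeR, and Msr1 was also lost without control 7 or control 9.

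Neutrophil genes had 0 called of 6 tested in edgeR, against 7.28% of all tested genes, and a median of -0.45. At an unadjusted p under 0.05 in edgeR, 1 was higher and 0 lower, against 27.6% of all tested genes. The summed CPM of the neutrophil genes was nevertheless higher in every GK library, at 242 to 318 against 26.3 to 166 in controls. Most of it was Mpo, myeloperoxidase, at 72.9 ± 53.6 CPM in controls and 282 ± 32.3 CPM in GK (SD, n = 4 each), without overlap. The log2 fold change of Mpo was 1.95 ± 0.51 (SE), with an edgeR adjusted p of 0.0546. It passed the threshold in DESeq2, and in edgeR without control 9, at 0.0285, without GK 9, at 0.0404, and without both libraries numbered 9, at 0.0120. Without any other single library the edgeR adjusted p of Mpo was 0.0747 to 0.137. Csf3r, the receptor for granulocyte colony-stimulating factor, was at 4.36 ± 2.34 and 3.34 ± 0.643 CPM (SD, n = 4 each).

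Lymphocyte and general leukocyte genes had 0 called in edgeR. Over all tested genes, edgeR called 7.28% and passed 27.6% at an unadjusted p under 0.05, and DESeq2 called 16.2% of its genes. Of 10 T cell genes, with a median of -0.01, 1 was higher and 1 lower at an unadjusted p under 0.05, and DESeq2 called 1 lower. Their summed CPM was 38.2 to 83.3 in controls and 21.1 to 75.7 in GK. Cd4, which rat macrophages also carry, was at 39.8 ± 16.9 and 16.0 ± 6.94 CPM, and the kinase gene Lck was at 6.34 ± 1.73 and 7.39 ± 4.31 CPM (SD, n = 4 each). The 6 B and plasma cell genes, with a median of -0.51, had 0 at an unadjusted p under 0.05 and 0 in DESeq2, and their sum was 9.96 to 20.2 CPM in controls and 6.64 to 23.9 CPM in GK. Igj, the joining chain of antibodies, was at 3.02 ± 1.98 and 3.66 ± 2.11 CPM, and Cd22, a B cell lectin, at 4.92 ± 1.65 and 3.06 ± 1.32 CPM (SD, n = 4 each). Of 6 general leukocyte genes, with a median of -0.59, 2 were lower at an unadjusted p under 0.05 and DESeq2 called 1 lower. Ptprc was at 63.9 ± 21.1 and 59.4 ± 33.4 CPM, and Laptm5, a lysosomal membrane protein of leukocytes, at 42.1 ± 16.8 and 25.5 ± 11.5 CPM (SD, n = 4 each).

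The tissue makeup of the libraries differed as well. In GK libraries 5 of 12 fibroblast genes and 3 of 12 contractile smooth muscle genes fell, while 4 of 13 general adipocyte, 2 of 7 brown adipocyte, 5 of 11 endothelial and 1 of 6 nerve genes rose, against 7.28% of all genes called. Those that fell included the collagens Col1a1 and Col3a1, the protease Mmp2, and the smooth muscle genes Itga8, Kcnmb1 and Lmod1. Those that rose included the lipid droplet and glycerol genes Plin4, Cidec and Aqp7, the brown fat list's Otop1 and glycerol kinase, the endothelial Kdr, Nos3 and Sox17, and the myelin gene Mbp. Without control 10, GK 7, GK 8 or GK 10, 0 fibroblast and 0 general adipocyte genes and at most 1 smooth muscle and 1 endothelial gene were called in edgeR, and Mbp was lost without control 10 or GK 8. At least 1 brown adipocyte gene was called in every fit with 1 library left out. Summed fibroblast CPM was 9266 to 18648 in controls and 2942 to 9065 in GK, and summed general adipocyte CPM was 8432 to 13228 and 13500 to 30826. All 12 contractile smooth muscle genes passed the filter and were tested, at a summed 3045 to 15549 CPM per library, as markers of the labelled tissue. The part of these shifts in the mast cell values was not tested.

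**Figure D5:**
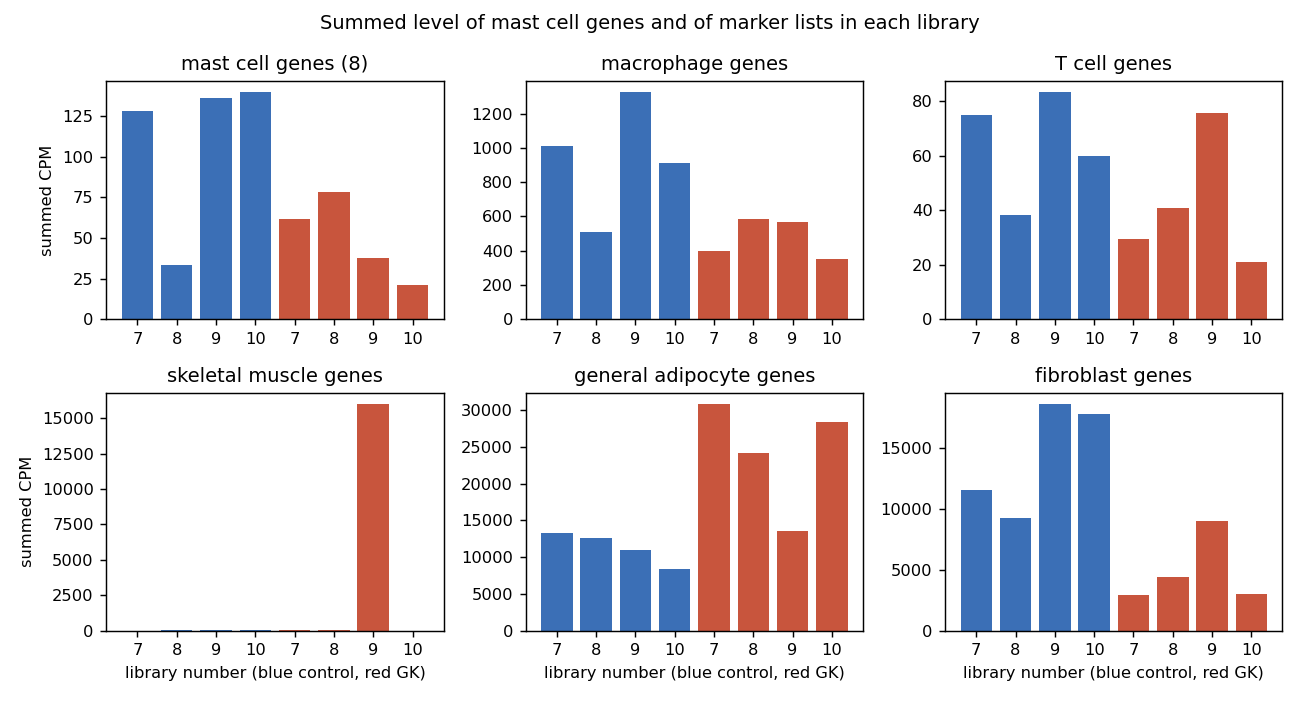
Summed CPM (bars from 0, own scale in each panel) of the 8 mast cell genes and of 5 marker lists in control (blue) and GK (red) libraries 7 to 10. Control 8 is the lowest control for mast cell, macrophage, T cell and fibroblast genes, and GK 9 alone carries skeletal muscle genes.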

How the data were processed

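Total RNA of rat thoracic aorta was sequenced in 4 control and 4 GK libraries, grouped by titles, strain and group labels. The source name, which reads GK for controls too, was ignored. Per the file headers, the authors deposited counts of reads for each gene and each lncRNA transcript, with FPKM per library and as group means. Their log2 fold changes, p-values and q-values are deposited per the file headers, which name edgeR without the test. The submitters' processing notes name Bowtie 0.12.2, and as builds mm8 and mm9 (mouse), with no role stated. The rat build, the counting and its use of strand are not given in the sources used here.

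Counts were tested in R 4.3.3 with edgeR 4.0.16 (filterByExpr, TMM, glmQLFit, glmQLFTest, group only), at a Benjamini-Hochberg adjusted p under 0.05 over all tested genes. Library totals ran from 11760397 to 16266151, and TMM factors from 0.826 to 1.24. CPM are counts over TMM-scaled totals. Correlations used log2 CPM with a prior count of 2. The fit was run on simulated data with 200 changed genes as a check of the code. The simulated spread between libraries was fixed and genes with few reads were not changed, so this does not measure power for the members. Alternatives were DESeq2 1.42.0, its size factors, no filter, replicate number as a block and libraries left out.

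The members, the 18 other gene lists and the tests were chosen with earlier results of these data known. Of the other lists up to 3 called genes by adjusted p are named, or with none called the 2 of highest mean CPM, and all other mast cell genes, Fcer1g and Kitlg may be named; the 8 genes most like the members have a mean log2 CPM of at least 1. Among listed symbols 31 were not matched and are not analysed here, and 1 was matched through a synonym. Promoter sequences and gene spans came from RefSeq (GRCr8).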

Additional observations from a re-analysis of the deposited data

Results flagged for a closer look

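Each of 128 groups of 4 libraries, for 64 genes, was searched for a library far from the other 3, and 15 were found. For independent groups of normally spread values, chance gives about 1 in 20 groups. These genes share the same libraries and are not independent, so the number found is a description and nothing is read from its excess. Among the 16 groups of mast cell members the single case was Mcpt1, at 11.2 CPM in control 8 with the next control at 66.9 CPM. Control 8 was also set apart downward for Mrgprx2, at 0 CPM, and Itgam, at 8.60 CPM, and upward for Myh1, at 11.4 CPM. Itgam had been picked for its likeness to the members, whose mean was low in control 8, so its flag is no separate result. GK 9 was far above the other GK libraries for Slc18a2 at 45.9 CPM, Gata2 at 38.5 CPM, Cnrip1 at 12.0 CPM, Prkcd at 32.1 CPM, Acta1 at 4302 CPM and Myh1 at 8279 CPM. Control 9 was above the other controls for Slc18a2 at 2.48 CPM, Csf3r at 7.84 CPM and Lyz2 at 525 CPM. In the GK group, GK 10 was set apart upward for Cd63, at 62.7 CPM, and GK 7 downward for Mpo, at 233.8 CPM.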

How the results depend on the processing

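None of the mast cell members was called under any of the 13 alternatives, and the members other than Hdc kept a negative fold change in each fit that included them (6 for Fcer1a, 13 for the others). Hdc changed sign to -0.0280 with the replicate block, -0.08 without control 8, -0.09 without control 10, -0.28 without GK 7 and -0.08 without GK 8, within a range of -0.28 to 0.33 over the fits with 1 library left out. The cause was not tested. Over all genes, 995 were called, against 2433 by DESeq2, 654 without the low count filter, 2372 with the replicate block, 2534 without both libraries numbered 9, and 135 (without control 10) to 3046 (without GK 9) with 1 library left out. In the 18 other lists 30 genes were called, against 57 by DESeq2, 55 with the replicate block, 50 without both libraries numbered 9, and 2 (without control 10) to 59 (without GK 9) with 1 library left out. The replicate numbers were not taken as pairs: same-numbered libraries correlated at 0.417, 0.0679, 0.545 and 0.0248 for 7 to 10, and only 7 and 9 matched their own number best. With this block Kitlg and Mitf, not called without it, had edgeR adjusted p-values of 0.0380 and 0.0464. Depth limits Fcer1a and Ms4a2, with 1 and 6 reads in control 8.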

Other observations

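Catalogued lncRNA transcripts overlap 2 mast cell genes in the lncRNA table. NONRATT010921.2, within Mcpt1 on chromosome 15 from 34611073 to 34612409, held 24, 3, 31 and 34 reads across controls 7 to 10, and GK 7 to 10 held 13, 16, 2 and 1. Its reads were low in control 8, as those of Mcpt1 were, and without stated strand the reads of the gene and of this transcript cannot be told apart. NONRATT010918.2, over Cma1, had 1 read in each group. Of the 17441 pairs of lncRNA and target gene in the authors' deposited table, 0 name a mast cell member.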
